A study of Mus musculus with 3 samples.

Results

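Connexins and pannexins are protein families that form large-pore channels in vertebrate cells. The 9 members described here are the connexin genes Gja1, Gja4, Gja5, Gjb2, Gjc1 and Gjd3 and the pannexin genes Panx1, Panx2 and Panx3, taken by symbol from 25410 symbols in the deposited tables. The members were given by name and not by a threshold. All 9 were present, 8 with a single row and Gjc1 with 3 rows that were summed. Expression was measured by RNA-seq in IDG-SW3, a mouse osteocytic cell line. There is a single group, PTH at day 35, with 3 replicate libraries that the design text calls biological triplicates. Its cells had differentiated for 35 days in osteogenic medium and received 100 nM parathyroid hormone (PTH) for 24 h before RNA was taken. Every library therefore shares the hormone, the line and the differentiation state, and vehicle-treated libraries were not used. No effect of PTH on a connexin or pannexin was measured. The values answer which of these channel genes the treated cells expressed, at what level, and how closely the libraries agreed.

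Connexin subunits assemble into a ring called a hemichannel, and hemichannels of neighbouring cells dock into gap junction channels that pass ions and small signalling molecules. Osteocytes are joined in this way through their cell processes, and connexin 43, the product of Gja1, is the connexin best known from osteoblasts and osteocytes. PTH has been described to raise connexin 43 in osteoblast-like rat cells. Pannexins are unrelated in sequence but have a similar membrane topology, and they act mainly as single-membrane channels, for example for the release of ATP.

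The libraries held 35195518, 37299517 and 45240005 counts in replicates 1, 2 and 3. RPKM stands in the files' names, yet the values are whole numbers with these totals and were read as counts. Levels below are RPKM computed here, counts per kilobase of transcript and per 1000000 counts of the library, and all of them rest on that reading. Of 10 osteoblast and osteocyte marker genes, 5 were above 1 RPKM, the osteoblast genes Ibsp, Alpl and Sp7 and the osteocyte genes Pdpn and Phex, and 5 were unresolved. Of the unresolved, Runx2 averaged 1.25 RPKM, and the osteocyte genes Dmp1 (77, 115 and 6 counts), Mepe, Fgf23 and Sost (2, 0 and 0 counts) averaged 0.652, 0.436, 0.266 and 0.00917 RPKM. Most osteocyte markers in the list were thus not above 1 RPKM. The share above among all genes tested was 43.2%. Runx2 has 3 rows, and symbols with several rows were often low in these files, so its level is uncertain. Replicate 3 was the deepest library and had the most genes at 0, namely 5119, against 4052 in replicate 1 and 3333 in replicate 2.

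The RefSeq promoter table (build GRCm38.p6) held 5 of the 9 members, and the 250 bases before the start are shown for the connexin with the highest level and for Panx1, the only pannexin in the table. Capitals mark matches, on either strand, to TGANTCA (AP-1), TGACGTCA (the cyclic AMP response element), GGGCGG (the GC box), TGTGGT (the RUNX core) and TATAAA (the TATA box). The Gja1 window lies at chr10:56377050-56377299 on the plus strand, and that of Panx1 at chr9:15045479-15045728 on the minus strand.
Gja1: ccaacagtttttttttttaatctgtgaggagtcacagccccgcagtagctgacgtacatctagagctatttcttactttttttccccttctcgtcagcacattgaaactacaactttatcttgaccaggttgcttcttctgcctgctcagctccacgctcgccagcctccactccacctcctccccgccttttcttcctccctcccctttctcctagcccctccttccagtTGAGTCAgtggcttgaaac
Panx1: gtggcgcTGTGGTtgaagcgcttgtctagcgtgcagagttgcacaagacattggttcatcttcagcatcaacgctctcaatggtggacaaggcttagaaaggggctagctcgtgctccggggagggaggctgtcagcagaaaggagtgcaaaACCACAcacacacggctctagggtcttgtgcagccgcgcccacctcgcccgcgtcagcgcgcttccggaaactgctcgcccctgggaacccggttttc
In the Gja1 window the only match was an AP-1 sequence, TGAGTCA, at positions -19 to -13 from the start. The AP-1 letters were found in 6.87% of 27025 promoter windows of the same length, and none of the windows of Gja4, Gja5, Gjb2 and Panx1 held them. Panx1 had a pair of RUNX cores, a motif found in 14.18% of windows, while Gja4, Gja5 and Gjb2 had GC boxes, found in 32.94%. The cyclic AMP response element (1.62% of windows) and the TATA box (12.97%) were in none of the 5. These are letter matches in a short window and say nothing about binding in these cells.

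Gja1 was expressed at a level that no other member approached. Its deposited counts were 317221, 362741 and 419255 in replicates 1, 2 and 3, which gave 2883, 3111 and 2964 RPKM. The 3 libraries lay close together, with a mean of 2986 ± 115 RPKM (SD, n = 3). Among 20446 protein-coding genes with a length, Gja1 ranked 5th by mean RPKM. It was above 1 RPKM by edgeR's quasi-likelihood test (log2 level 11.54), with an adjusted p below the smallest value the software can represent. Per library, Gja1 took 0.901%, 0.973% and 0.927% of all counts.

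The genes nearest to Gja1 in level were products of very different kinds. The closest higher protein-coding genes were H3f3a, a histone H3.3 gene at 3004 ± 424 RPKM, Gm2000 at 3986 ± 363 and the translation elongation factor gene Eef1a1 at 5199.7 ± 144 (SD, n = 3 each). Those just lower were Col1a2, a chain of type I collagen, at 2946 ± 90.4 RPKM, and the ribosomal protein genes Rpl5 at 2512 ± 170 and Rps3a at 2163 ± 251. Within libraries, H3f3a and Col1a2 differed from Gja1 by log2 differences of -0.0002 and -0.02, not past the limma test (adjusted p = 0.998 and 0.805), while Eef1a1 was higher by 0.80 and Rpl5 lower by a log2 difference of -0.25 (limma adjusted p = 2.3e-07 and 0.00733). Ribosomal protein, histone and Eef1a1 genes have near-identical copies elsewhere in the genome, which leaves their counts less certain. Of 3336 windows of 36 bases in the annotated Gja1 transcripts, 0 occurred in an annotated transcript of another gene, and no annotated exon overlapped Gja1 on either strand. Genome sequence outside annotated transcripts was not searched, and the genes nearest to Gja1 in level were not searched in this way.

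Among connexin genes nearly all counts were those of Gja1. The other 8 members together held 299, 229 and 370 counts in replicates 1, 2 and 3, which left Gja1 with 99.91%, 99.94% and 99.91% of the members' counts. Over all 20 connexin symbols in the files, Gja1 held 99.92% (exact 95% binomial interval 99.91% to 99.93%) in replicate 1, 99.91% (99.90% to 99.92%) in replicate 2 and 99.96% (99.95% to 99.97%) in replicate 3. The exact intervals, here and below, describe counting error alone and leave out the spread between libraries. Counts that are copies of the same molecule were not told apart. The shares are not corrected for length.

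**Figure D1:**
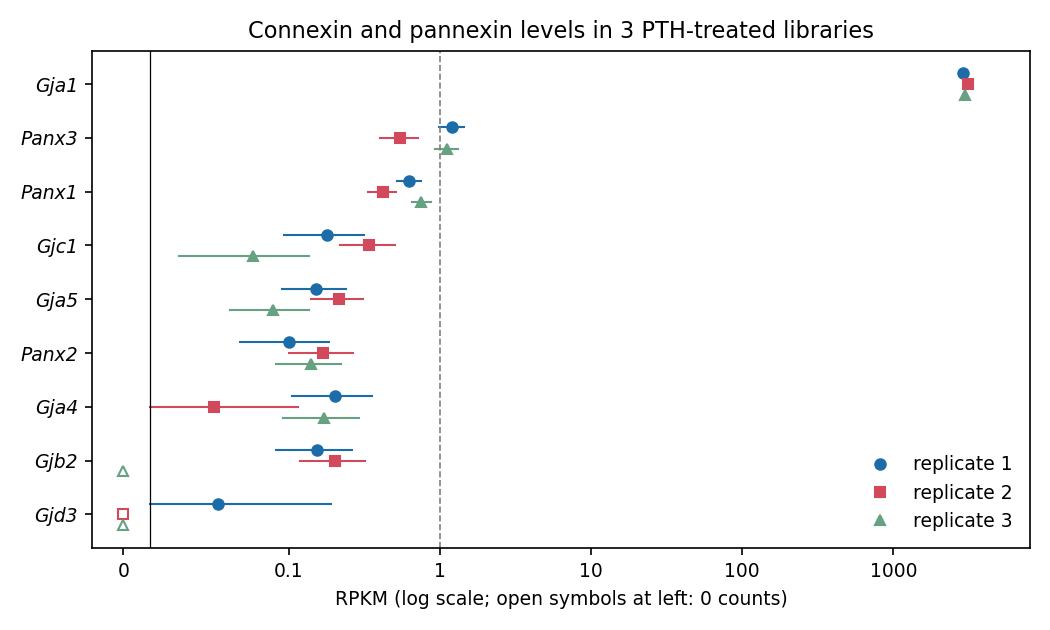
Level of each connexin and pannexin gene in each of the 3 PTH-treated libraries, in RPKM on a log axis; symbols are libraries, lines are exact 95% Poisson intervals of the counts (cut at the left edge for Gja4 in replicate 2 and Gjd3 in replicate 1), open symbols are 0 counts and the dashed line is 1 RPKM. Gja1 sits at 2883 to 3111 RPKM in all 3 libraries, Panx3 and Panx1 around 1 RPKM, and the others lower.

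The other connexins of the set had 27 counts or fewer in any library. Gjc1 encodes connexin 45, known from cardiac conduction tissue, smooth muscle and osteoblasts. It had 12, 24 and 5 counts, or 0.179, 0.338 and 0.0581 RPKM, a mean of 0.192 ± 0.140 (SD, n = 3). The counts of Gjc1 came from different rows in different libraries: the first row held 12, 9 and 0, the second 0, 0 and 2, and the third 0, 15 and 3. Several rows per symbol went with low values throughout the files. Protein-coding symbols with several rows had a median of 0.176 counts per 1000000, with 31.77% of them at 0, against 2.275 and 2.65% at 0 for those with 1 row. The low level of Gjc1 is therefore uncertain.

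Gja5, Gja4 and Gjb2 followed at similar levels. Gja5 encodes connexin 40, a connexin of arterial endothelium and atrial muscle, and had 18, 27 and 12 counts, or 0.151, 0.214 and 0.0783 RPKM in replicates 1, 2 and 3. Gja4, which encodes connexin 37 of endothelium and ovarian follicles, had 12, 2 and 13 counts, or 0.202, 0.0318 and 0.171 RPKM. Gja5 was highest in replicate 2 and Gja4 lowest in it, at 2 to 27 counts a library. Of the 5651 windows of 36 bases in the Gja5 transcripts, 16.5% also occurred in transcripts of other genes, and an exon of Gpr89 lies antisense to it. Gjb2, the gene of connexin 26 in cochlea and epithelia, had 13, 18 and 0 counts, or 0.154, 0.201 and 0 RPKM.

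Gjd3 was at the limit of detection. It encodes connexin 30.2, known from the atrioventricular node of the mouse heart, and had 1, 0 and 0 counts in replicates 1, 2 and 3. A count of 0 allows up to 3 counts, which for this short transcript is 0.0961 RPKM in replicate 2 and 0.0792 RPKM in replicate 3. The single count of replicate 1 gave 0.0339 RPKM, with an exact 95% Poisson upper bound of 0.189 RPKM. Its transcript is also the most GC-rich of the set at 70.25% GC, against 44.82% for Gja1 and a median of 49.42% over all genes. With the correction for GC content its log2 level against 1 RPKM was -4.98, against -6.10 without it.

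Pannexin genes were expressed at low levels, with Panx3 and Panx1 above Panx2 in every library. Panx3, which is known from osteoblasts, chondrocytes and skin, had 107, 51 and 127 counts, or 1.20, 0.540 and 1.11 RPKM in replicates 1, 2 and 3 (mean 0.950 ± 0.358, SD, n = 3). Panx1, a widely expressed ATP-release channel, had 126, 89 and 195 counts, or 0.625, 0.416 and 0.752 RPKM (mean 0.598 ± 0.169). Both were lowest in replicate 2. Panx2, best known from the nervous system, had 10, 18 and 18 counts, or 0.0996, 0.169 and 0.139 RPKM (mean 0.136 ± 0.0349), below every library of Panx3 and Panx1.

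Panx3 exceeded Panx1 in the pooled counts per kilobase 1.57-fold (exact 95% counting interval 1.35 to 1.84), and exceeded Panx2 6.98-fold (5.10 to 9.75). These intervals leave out the spread between libraries, over which the difference of Panx1 from Panx3 did not pass (limma adjusted p = 0.37), and the correction for GC content turned its direction (log2 difference 0.078). The same ratio of Panx1 to Panx2 was 4.44 (3.27 to 6.15). Without the division by length the order of the first pair is the other way round, because the Panx1 transcript is 5732 bases and that of Panx3 2531 bases. Panx3 took 44.0%, 32.3% and 37.4% of the pannexin counts in replicates 1, 2 and 3, with exact 95% binomial intervals of 37.7% to 50.5%, 25.1% to 40.2% and 32.2% to 42.7%.

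Each gene with a count was tested two-sided against a level of 1 RPKM with edgeR's quasi-likelihood test over 20995 genes. Of the 9 members 1 was above, Gja1, and 2 were below, Panx1 (log2 level -0.74, adjusted p = 0.0171) and Gja5 (log2 level -2.76, adjusted p = 0.0223). Over all genes tested 43.2% were called above and 13.4% below, so the count below is near the background. The other 6 members were unresolved. For Gjc1, Gja4, Gjb2, Panx2 and Gjd3 an unresolved call does not place the level near 1 RPKM. Their exact Poisson upper bounds were at most 0.503, 0.353, 0.317, 0.267 and 0.189 RPKM in any library. These bounds describe counting error alone and leave out the spread between libraries, which the edgeR test includes. The bound of Gjc1 is uncertain beyond that, because Gjc1 has several rows. Panx3 was centred on the threshold (log2 level -0.07, adjusted p = 0.822), whereas Panx2 just missed it (log2 level -2.87, adjusted p = 0.0501) and was called below with the mean over rows, the longest transcript or genes with 10 or more counts (adjusted p = 0.039, 0.035 and 0.0459). Gja4, Gjb2, Gjc1 and Gjd3 had log2 levels of -2.87, -3.08, -2.38 and -6.10 with edgeR adjusted p-values of 0.158, 0.103, 0.107 and 0.0868. Neither call below survived the loss of replicate 1 or of replicate 2, where 0 members were below. At an unadjusted p under 0.05 there were 3 members below, DESeq2 called 0 and limma 6, while the call of Gja1 above held in each of these fits. The 6 of limma included Gja5 but not Panx1 (limma adjusted p = 0.0562). Panx1 was also not called below with protein-coding counts as the library total (edgeR adjusted p = 0.171).

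The levels of all genes formed a distribution with a peak on either side of a trough near 1 RPKM. With bins of 0.1 on the log10 scale, the lower peak lay at 0.224 RPKM, the trough at 1.12 RPKM and the upper peak at 7.08 RPKM. Gjc1, Gja5, Panx2, Gja4 and Gjb2 had means of 0.118 to 0.192 RPKM, within the lower peak. Panx1 and Panx3 lay between the lower peak and the trough, higher than 52.0% and 56.7% of the 23031 genes with a length. Gja1 lay higher than 99.93% of them.

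**Figure D2:**
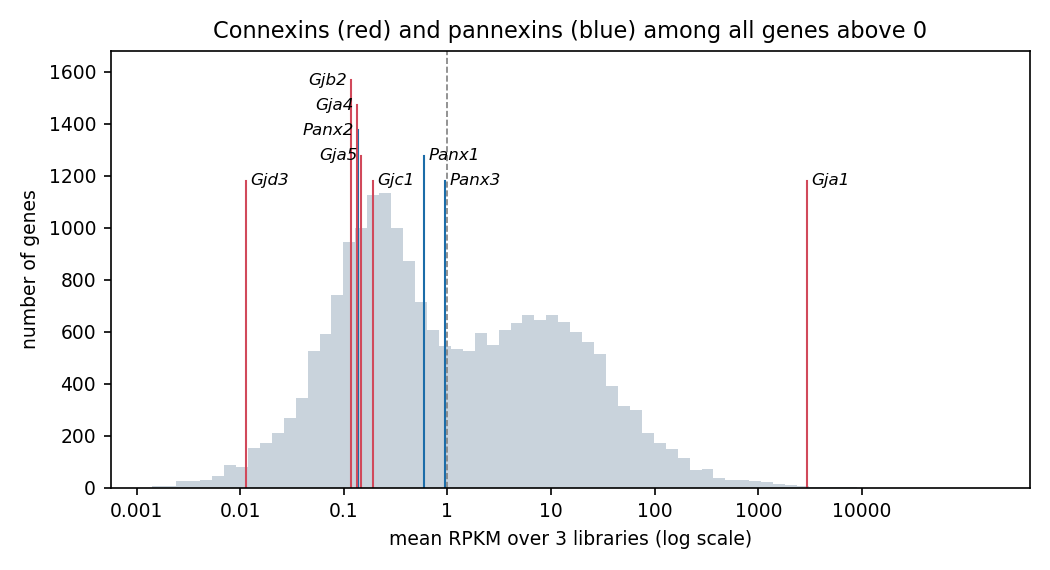
Histogram of the mean RPKM over 3 libraries (log axis) of the 20995 genes above 0, with vertical lines for the connexins in red and the pannexins in blue; the dashed line is 1 RPKM. Gja1 stands at the right-hand end at 2986 RPKM, and 5 members cluster in the lower peak between 0.118 and 0.192 RPKM, where the lines of Panx2 and Gja4 nearly coincide.

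Set against Gja1 within each library, every other member was lower by more than the spread between libraries. The difference in log2(RPKM + 0.1) was tested with limma over all genes for each gene against Gja1, and 99.9% of genes were lower than Gja1 in that fit, so 8 of 8 is what most genes show. Panx3 was closest, with log2 differences from Gja1 of -11.11, -12.25 and -11.26 in replicates 1, 2 and 3 and a mean of -11.54 (95% interval -12.21 to -10.87, limma adjusted p = 3.2e-13). Panx1 followed at -12.09 (-12.87 to -11.32, limma adjusted p = 8.31e-13). From Gjc1 to Gjb2 the means ran from -13.44 to -13.89, and Gjd3 stood at -14.72. The exact sign-flip permutation test of Panx3 against Gja1 gave p = 0.25, the smallest it can give with 3 libraries. The pseudocount understates these differences for the low genes. In pooled counts per kilobase Gja1 had 3122 times as many as Panx3 (exact 95% counting interval 2780 to 3519), 4915 times as many as Panx1 (4462 to 5428) and 16318 times as many as Gjc1 (12029 to 22740). The ratio to Gjc1 is uncertain beyond its interval, because Gjc1 has several rows.

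**Figure D3:**
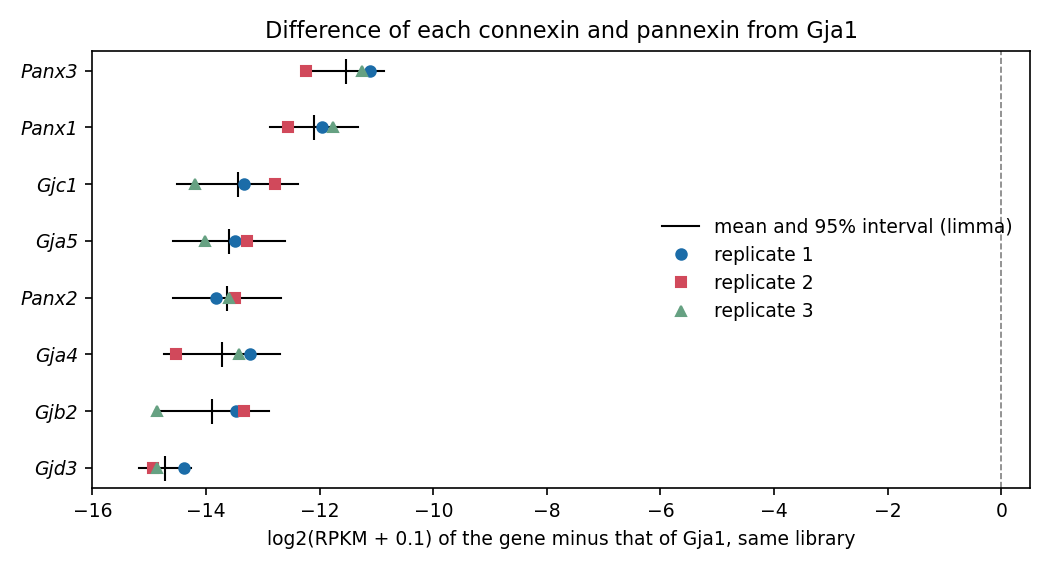
Difference of each gene from Gja1 in log2(RPKM + 0.1) within the same library; symbols are the 3 libraries, ticks and lines are the limma mean and its 95% interval, and the dashed line at 0 is the level of Gja1. All 8 genes lie between -14.92 and -11.11 in every library, with Panx3 and Panx1 nearest to Gja1.

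The order of the members by mean RPKM was Gja1, Panx3, Panx1, Gjc1, Gja5, Panx2, Gja4, Gjb2 and Gjd3. Of the 8 steps between neighbours in this order, 2 passed the limma test. They were Panx3 below Gja1, given above, and Gjc1 below Panx1 by a log2 difference of -1.35 (95% interval -2.56 to -0.13, limma adjusted p = 0.0392), where 31.3% of all genes were called lower than Panx1. In the second of these the libraries differed widely, at -1.38, -0.24 and -2.43, and its call was lost without replicate 1 (adjusted p = 0.204) or replicate 3 (0.271). Panx1 was lower than Panx3 in 3 of 3 libraries (log2 differences -0.84, -0.31 and -0.51), but the mean of -0.55 did not pass (95% interval -1.70 to 0.59, limma adjusted p = 0.37). The share of all genes called lower was 39.2% against Panx3, 4.49% against Gjc1, 7.54% against Gja5, 7.69% against Panx2 and 0% against Gja4 and Gjb2, so the fits against the lowest members could make few calls or none. From Gjc1 down to Gjb2 the neighbours differed by -0.04 to -0.17 on the log2 scale, less than the spread between libraries. Gjd3 was lower than Gjb2 by -0.84 (-1.92 to 0.24, limma adjusted p = 0.214), and both had 0 counts in replicate 3. Without replicate 3 this step was -1.25 and passed (limma adjusted p = 0.000121). A difference that did not pass is not a sign that the levels are alike, as the intervals show.

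The libraries lay closer together for Gja1 than for any other member. The SD of log2(RPKM + 0.1) over the 3 libraries was 0.06 for Gja1, against a median of 0.34 over all genes tested. Among the genes nearest to Gja1 in level, Eef1a1 and Col1a2 had 0.04, Rpl5 0.10, Gm2000 0.13, Rps3a 0.17 and H3f3a 0.21. A small SD was thus not particular to Gja1. Among the other members the SD was 0.22 for Panx2, 0.24 for Gjd3 with its single count, 0.37 for Panx1 and 0.41 for Gja5. It was between 0.56 and 0.85 for Panx3, Gja4, Gjc1 and Gjb2. Gjc1, Gja5 and Gjb2 had their lowest level in replicate 3, the library with the most genes at 0. Whether that library feature and those low values are linked was not tested.

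The 14 other connexin genes were all low, and 0 of them were above 1 RPKM in the edgeR test (9 were unresolved, 3 were below and 2 were listed at 0). Among all genes tested 43.2% were above and 13.4% below. The count above was also 0 at an unadjusted p under 0.05, with limma and with DESeq2, and leaving out replicate 1 or replicate 2 left 1 gene below. Highest was Gjb5, a connexin of epithelia, with 63, 57 and 55 counts and 0.878 ± 0.167 RPKM, more than any member except Gja1 and Panx3. Gjc3 (0.182 ± 0.183) and Gja10 (0.160 ± 0.212) had most of their counts in replicate 2, and Gjc3 was called below 1 RPKM, as was Gjd2. The median of the list was 0.108 RPKM, against 0.740 RPKM over all genes tested.

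Genes whose products bind, modify or turn over connexin 43 were mostly expressed, with 13 of 18 above 1 RPKM (10 with DESeq2), 2 below (1 without replicate 1 or replicate 2) and 3 listed at 0. Over all genes tested 43.2% were above, and the list was not tested against other genes. The ubiquitin ligase gene Nedd4 stood at 249.9 ± 7.24 RPKM and Cav1, which encodes caveolin-1, at 216 ± 35.2. Nov, whose secreted product CCN3 binds connexin 43, stood at 87.5 ± 11.2 RPKM. Kinase C genes Prkcd (9.58 ± 1.72) and Prkca (6.96 ± 0.763) and the adherens junction gene Cdh2 (14.2 ± 0.953) were also above. The scaffold gene Tjp1, whose product ZO-1 binds the tail of connexin 43, was called below 1 RPKM at 0.381 ± 0.0406. Tjp1 and Dbn1, the 2 called below, and Src, Csnk1d and Arrb1, the 3 listed at 0, all have several rows, so their low values are not read as absence. The median of the list was 5.58 RPKM.

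Of 11 other large-pore channel genes in the files 6 were above 1 RPKM, 2 below, 2 unresolved and 1 at 0, and 0 were below without replicate 1 or replicate 2. These counts stand beside 43.2% above and 13.4% below among all genes tested, and the list was not tested against other genes. The mitochondrial channel gene Vdac1 stood at 350.3 ± 33.1 RPKM and the scramblase gene Ano6 at 14.8 ± 0.970. Lrrc8a, the obligatory subunit of the volume-regulated anion channel, which resembles pannexins in sequence, stood at 13.6 ± 0.392 RPKM, and Lrrc8e at 6.81 ± 0.331. Each of the 3 libraries had more Lrrc8a than Panx1 or Panx3 (13.9, 13.6 and 13.1 RPKM). Lrrc8c (0.640 ± 0.0559) and Lrrc8b (0.594 ± 0.220) were called below 1 RPKM, and the 2-row gene Lrrc8d was listed at 0. Calhm2 and Fam26e, of the calcium homeostasis modulator family, were above at 3.53 ± 0.351 and 3.33 ± 0.652 RPKM.

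Receptors and enzymes that act on extracellular ATP were mostly unresolved, with 3 of 15 above 1 RPKM, 0 below and 12 unresolved. They were Nt5e, which makes adenosine from AMP, at 11.6 ± 1.41 RPKM, the ATP-gated channel gene P2rx4 at 11.3 ± 1.32, and Enpp1, which makes pyrophosphate from ATP, at 3.08 ± 0.486. P2ry1 was unresolved at 1.24 ± 0.318 RPKM. P2rx7, whose channel works together with Panx1 in other cells, was unresolved at 0.695 ± 0.346 RPKM and has 4 rows. Of the 15, 2 were below at an unadjusted p under 0.05 in the edgeR test, 9 with limma and 0 with DESeq2. In the main edgeR test 43.2% of all genes were above and 13.4% below, and the list was not tested against other genes.

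**Figure D4:**
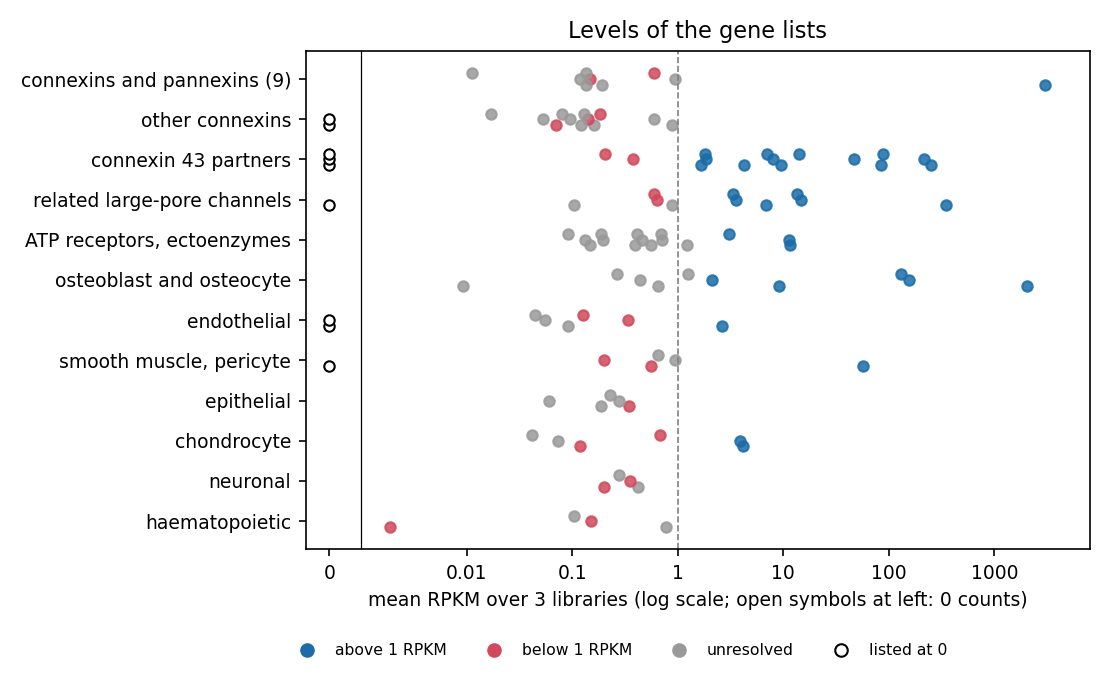
Mean RPKM over 3 libraries (log axis) of each gene in the connexin and pannexin set and in 11 other lists; colours give the edgeR call against 1 RPKM (dashed line), and open symbols at the left are genes listed at 0. Among the 9 connexins and pannexins only Gja1 is above, at 2986 RPKM, while 13 of 18 connexin 43 partners are. Of all genes tested 43.2% were above.

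Several of the low members are textbook genes of other cell types, whose markers were also mostly low. Gjc1 and Panx3, set below beside smooth muscle and chondrocyte markers, are known from osteoblasts as well. Of the osteoblast and osteocyte markers 5 of 10 were above 1 RPKM. For the counts in this paragraph, the share above 1 RPKM among all genes tested was 43.2%. Endothelial markers, beside Gja4 and Gja5, had 1 of 8 genes above 1 RPKM, Kdr at 2.62 ± 0.185 (0 with DESeq2), and their summed level was 3.18 to 3.46 RPKM. Pecam1 and Emcn (several rows each) were listed at 0, Cdh5 had 20, 36 and 0 counts, and Cldn5 had 0, 3 and 5. Epithelial markers, beside Gjb2, had 0 of 5 above and summed to 0.994 to 1.19 RPKM. Neuronal markers, beside Panx2, had 0 of 4 above and summed to 1.02 to 1.53 RPKM, and haematopoietic markers had 0 of 4 above and 0.442 to 1.65 RPKM. In these 3 lists the count above was also 0 at an unadjusted p under 0.05, with limma and with DESeq2. Smooth muscle markers, beside Gjc1, had 1 of 6 above, Acta2 at 57.1 ± 5.31 RPKM, with a summed level of 54.1 to 63.0 RPKM and Myh11 (2 rows) at 0. Chondrocyte markers, beside Panx3, had 2 of 6 above, Sox9 at 4.17 ± 1.17 and Col10a1 at 3.90 ± 0.787. They summed to 7.83 to 10.8 RPKM, with Col2a1 (2 rows) at 0.118 ± 0.0610. The part of other cell types in the low connexin counts was not tested. In bulk RNA, few cells with a transcript cannot be told apart from little transcript in every cell.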

How the data were processed

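RNA was depleted of ribosomal RNA and made into strand-preserving libraries, per the labels' protocols. TopHat and the mouse build mm9 are named in the submitters' processing notes. Which counting tool, annotation and strand setting were used is not stated there. Each deposited file lists a whole number for 30795 named rows, read as counts with no normalization although the file names give RPKM, because values times length in kilobases summed to 111218592 or more per library. Rows were summed per symbol. Lengths were medians over GENCODE M21 basic transcripts (20840 symbols matched directly, 2191 by RefSeq synonym). RPKM used the total of all rows.

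Levels were tested against 1 RPKM with edgeR 4.0.16 (R 4.3.3), quasi-likelihood, robust, Benjamini-Hochberg over 20995 genes, threshold 0.05. Differences between genes were tested with limma 3.58.1 on log2(RPKM + 0.1) within libraries, the lower gene against the higher. Both were tested on simulated counts with a dispersion between libraries of 0.03. There the level test called below 100% of the genes set at 0.25 RPKM. Of the measured genes at 0.05 to 0.5 RPKM it called 32.1% below. The simulation therefore does not show how often low members would be called. DESeq2 1.42.0 was an alternative. Named genes were all members, up to 4 of each list by mean RPKM, and the 3 nearest Gja1 on each side. Others named were chosen after their values were seen. Members and lists were chosen with earlier results of these data known. Nothing pairs the libraries. The edgeR and limma p-values measure the spread between them, with each gene's spread drawn towards that of all genes. They therefore do not rest on the values of that gene alone, and they measure no other source of variation. Protein sequences were not used here. Some genes of the lists enter the counts but are not reported here by name.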

Additional observations from a re-analysis of the deposited data

How the results depend on the processing

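The call of Gja1 above 1 RPKM and the 8 differences from Gja1 held under every alternative run, except that without replicate 1 Gjd3 had no counts and 7 differences remained. With the correction for GC content, added after the data were seen, the log2 level of Gja1 was 10.73. Members below 1 RPKM numbered 3 with the mean over rows, the longest transcript, genes with 10 or more counts or the GC correction, 1 with protein-coding counts as the total, 0 to 2 with a library left out, 6 with limma and 0 with DESeq2. Panx1 was not among those called with protein-coding totals or with limma. Steps between neighbours that passed numbered 1 with the shortest transcript or a pseudocount of 0.01 RPKM, and 1 to 2 with a library left out, where without replicate 3 Gjd3 below Gjb2 passed in place of Gjc1 below Panx1. Panx3 changed sides without a call, to a log2 level of 0.25 with protein-coding totals, and lay at -0.28 to 0.21 with a library left out, and was called below with the GC correction (log2 level -0.88, edgeR adjusted p = 0.016). Steps that changed sign, none of them called, were Gja5 against Gjc1 (0.58 with the mean over rows, 0.0011 with the GC correction, -0.32 to 0.0098 with a library left out), Panx2 against Gja5 (0.066 with the shortest transcript, 0.73 with the GC correction, -0.28 to 0.10 with a library left out), Gja4 against Panx2 (0.052 with the longest transcript, -0.43 to 0.39 with a library left out), Gjb2 against Gja4 (-0.85 to 0.47 with a library left out) and Panx1 against Panx3 (0.078 with the GC correction). The causes were not tested. Over all genes 2808 were below 1 RPKM, but 1220 without replicate 1, 907 without replicate 2, 1791 with protein-coding totals, 9844 with limma and 267 with DESeq2. No paired analysis was possible because the libraries form 1 group. Depth limits the low members: a few counts set their order.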

Other observations

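The nearest measured protein-coding genes on the chromosome are given for 7 of the 9 members. Gja1 on chromosome 10 stood at 2986 ± 115 RPKM, and its neighbours Msl3l2 and Hsf2, the gene of a heat shock factor, at 10.4 ± 2.39 and 17.6 ± 1.19 RPKM (SD, n = 3 each). Panx3, on chromosome 9, lies between Tbrg1 at 51.3 ± 2.35 RPKM and the olfactory receptor gene Olfr160 at 0.106 ± 0.0565. Panx1, on the same chromosome, has Gpr83 (0.0758 ± 0.0324) and Hephl1 (0.111 ± 0.0691) beside it, both lower than Panx1. Panx2 on chromosome 15 averaged 0.136 ± 0.0349 RPKM, and its neighbours Mov10l1 and Trabd 0.115 ± 0.150 and 17.5 ± 2.34. Gjd3 on chromosome 11 stood at 1, 0 and 0 counts. It lies between the retinoic acid receptor gene Rara at 0.0630 ± 0.0580 RPKM and Top2a, the DNA topoisomerase gene of dividing cells, at 9.45 ± 1.83. Rara has 4 rows, so its low value is not read as absence. Gjc1 on the same chromosome averaged 0.192 ± 0.140 RPKM beside Higd1b at 0.0695 ± 0.120 and Adam11, which has 2 rows and is listed at 0. Gjb2 on chromosome 14 is flanked by other connexin genes, Gja3 and Gjb6, at 0.0534 ± 0.0561 and 0.121 ± 0.188 RPKM. The low level of Gjb6 is uncertain, because it has 2 rows.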
